A study of Salmo salar with 60 samples.

Results

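The probes described here are the 200 array probes, of 43627 measured, whose levels followed most closely the main axis along which the individual salmon differed from each other. They were chosen from the measured values alone, with no use of diet day or tank. Among the 16476 probes that never carried flag code 1 and had a median background-corrected Cy5 signal of 200 or more over 59 arrays, each probe of the authors' value table was centred on its mean. The first principal component, the axis that holds more of the variation between fish than any other single axis, was then taken. The 200 probes with the largest absolute Pearson correlation with the score of each fish on this axis are the members: 173 rose with the score and are called positive here, and 27 fell with it and are called negative. The sign of the axis is arbitrary and was turned so that the fish farthest from 0 has a negative score.

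The study followed distal intestine of Atlantic salmon (Salmo salar, Sunndalsøra breed) kept in seawater in duplicate tanks. All fish were first adapted for 7 days to a fishmeal diet with 563 g per kg of fishmeal. Fish sampled on day 0 had eaten only this diet, and the others had then received a diet in which 200 g per kg of defatted soybean meal partly replaced the fishmeal for 1, 2, 3, 5 or 7 days. On each 2-colour array the Cy5 channel carried the RNA of 1 fish, and the Cy3 channel carried a pool made from 18 fish, 3 from each day. The arrays used here came from 9 fish on day 0 and from 10 fish on each of days 1, 2, 3, 5 and 7, 29 of them from tank 1 and 30 from tank 2. No group stayed on fishmeal beyond day 0, so time on soybean meal and time in the experiment cannot be told apart, and only fish with content along the whole gut were sampled. Each fish is 1 array, and fish of 1 tank share their water.

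The distal intestine of salmonids is lined by tall, vacuolated enterocytes on mucosal folds that take up macromolecules from the gut content. Soybean meal is known to cause an enteritis there, in which the folds shorten, the vacuoles are lost and inflammatory cells enter the lamina propria. A principal component taken across animals gathers transcripts that go up and down together, whether or not the experiment separates the animals in the same way.

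The probes carry only a position on the array (C104R106 is column 104, row 106) and were not paired with genes here, so no gene, pathway or role is given, the tissue could not be checked against marker genes, and the sequences of the probes are not shown. Whether several members target 1 transcript is therefore unknown. The ratios are of whole tissue, so fewer cells of a type and less RNA per cell cannot be told apart.

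The arrays differed in signal: the median background-corrected signal over probes lay between 55.5 and 125 in Cy5 and between 53.5 and 92 in Cy3. How these medians went with the score is given below. The pool was nearly the same on each array, with correlations of 0.98 to 0.998 between each array's log2 Cy3 signals and the median Cy3 profile, against 0.885 to 0.987 for Cy5. In their log2 ratios, any 2 arrays correlated at between -0.447 and 0.625. Ratios are fish over pool throughout, which was kept because the labels state the dyes. How many fish there were sets the precision of what follows.

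The first component held 39.8% of the variation among the eligible probes, with a jackknife standard error of 4.54 percentage points, against 7.33% for the second and 5.59% for the third. The absolute correlation of the members with the score ran from 0.930 to 0.979, with a median of 0.944, and its median over all eligible probes was 0.469. The choice of 200 has no gap behind it, because the probes at ranks 198 to 200 had absolute correlations of 0.9300, 0.9299 and 0.9299 and those at ranks 201 to 203 had 0.9299, 0.9298 and 0.9297. In all, 4051 of the 16476 eligible probes reached an absolute correlation of 0.7 or more, 2116 of them positive and 1935 negative. At 0.9 or more there were 542, of which 394 were positive and 148 negative. In between, at 0.8 or more, 1262 were positive and 912 negative. The surplus of positive probes thus grew toward the strict end of the list, while the signs were nearly balanced at 0.7. Its size depends on the measure: by Spearman's correlation 117 of the 200 closest probes were positive.

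The scores of the fish set a small number of animals far from the rest. On day 0 the lowest, median and highest scores were -87.9, 25.0 and 38.0 (mean 0.171 ± 47.1, SD, n = 9). After 1 day of soybean meal they were -93.0, 23.4 and 31.6 (mean 6.85 ± 38.9, n = 10), and after 2 days -111, 26.9 and 40.5 (mean 3.48 ± 46.0, n = 10). On each of these days most fish lay close together at the upper end and 1 or a few fish lay far below.

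On day 3 the scores ran from -31.3 through a median of 7.33 to 27.3 (mean 1.62 ± 20.1, n = 10). On day 5 they ran from -75.8 through -26.7 to 35.6 (mean -20.3 ± 39.8, n = 10). On day 7 they ran from -94.3 through 29.4 to 50 (mean 8.17 ± 54.0, n = 10). Day 3 had the narrowest spread and no fish at the far low end, day 5 had the lowest median with fish along the whole range, and day 7 had 8 fish at the upper end and 2 at the lower. The ranges of all 6 days overlapped.

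The tanks overlapped as well. Scores in tank 1 ran from -111 through 20.7 to 40.5 (n = 29), and those in tank 2 from -94.3 through 21.1 to 50 (n = 30). On day 5 the tank 1 fish ran from -75.8 through -55.8 to 19.4 (n = 5) and the tank 2 fish from -43.1 through 13.2 to 35.6 (n = 5), and a score below 0 was found in 4 of 5 fish of tank 1 and in 2 of 5 of tank 2.

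Taken over the 173 positive members, the median log2 ratio to the pool of a day 0 fish lay between -1.70 and 0.89, with a middle value of 0.67. The lowest, median and highest fish had -1.89, 0.61 and 0.84 on day 1 and -2.24, 0.73 and 0.86 on day 2. On day 3 the values were -0.32, 0.36 and 0.75. Most fish thus held these transcripts above their level in the pool, by less than 2-fold. The lowest fish of days 0, 1 and 2 held them several-fold below it, which no fish of day 3 did.

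On day 5 the same median ran from -1.49 through -0.36 to 0.90, and on day 7 from -1.94 through 0.78 to 1.05. Day 5 was the only day on which the middle value lay below the pool, and on day 7 the highest values of the series stood beside 2 of the lowest.

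The negative members were the mirror image. Their median log2 ratio ran from -1.03 through -0.78 to 0.65 on day 0, from -1.09 through -0.90 to 0.52 on day 1 and from -1.12 through -1.03 to 0.90 on day 2. It ran from -0.99 through -0.53 to -0.27 on day 3, from -0.85 through -0.22 to 0.50 on day 5 and from -1.39 through -1.06 to 0.85 on day 7. In every day but day 3 at least 1 fish held them above the pool, and the fish that did so were the ones lowest in the positive members.

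The fish with the lowest scores had nearly the whole list low together, which follows from choosing probes by their correlation with the score. All 173 positive members were at least 2-fold below their own median over the 59 fish in day 7 replicate 2. The count was 172 in day 7 replicate 7 and 171 each in day 2 replicate 10, day 1 replicate 7 and day 0 replicate 7. Most of the positive members were that low in 10 fish, and none was that low in 34 fish.

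Those 10 fish came from day 0 (2 of 9), day 1 (1 of 10), day 2 (1 of 10), day 5 (4 of 10) and day 7 (2 of 10), with 0 of 10 on day 3. Of them 7 of 29 were in tank 1 and 3 of 30 in tank 2. They lay on 8 of the 15 slides and on all 4 array positions, but not evenly. Day 2 replicate 10, day 7 replicate 7 and day 5 replicate 10 shared 1 slide, which also held day 2 replicate 8 with a score of 25.7. Fish that had eaten no soybean meal were therefore among them. In day 2 replicate 10, which had the lowest score, 27 of 27 negative members were also at least 2-fold above their own median, as were 25 of 27 in day 7 replicate 2.

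Over the 173 positive members, the log2 ratios of any pair among the 6 lowest-scoring fish, from days 0, 1, 2, 5 and 7, correlated at 0.798 to 0.922. These are correlations across probes, which are not independent replicates, and both the members and these fish were picked by the score, so the values describe the choice and are no finding. The lowest of all fish for a given positive member was day 2 replicate 10 for 97 of 173 members, day 7 replicate 7 for 27 and day 1 replicate 7 for 21. At the other end the highest fish was day 7 replicate 5 for 38 of 173, day 1 replicate 5 for 22 and day 7 replicate 4 for 16, so no one fish set the upper end.

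The members varied strongly but were not simply the most variable probes. The standard deviation over fish of the log2 ratio had a median of 0.92 for the positive members and 0.60 for the negative members, against 0.36 for all eligible probes. The distance from the lowest to the highest fish was 3.66 on the log2 scale in the median positive member (1.45 to 8.53) and 2.47 in the median negative member (1.60 to 4.53). It was 5 or more in 28 of 173 positive members and in 0 of 27 negative members. Of the 200 eligible probes with the largest standard deviation, 35 were positive members and none was a negative member.

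The positive member with the widest range was C104R106. Its log2 ratio ran from -6.27 through 1.20 to 1.98 on day 0, from -1.48 through -0.0041 to 1.58 on day 3, from -5.78 through -1.25 to 1.58 on day 5 and from -6.01 through 1.40 to 2.17 on day 7. Low and high fish stood side by side on days 0, 5 and 7. Day 3 had no fish at the low end.

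In the raw signals its Cy5 value, from the fish, lay between 12.5 and 16290, while its Cy3 value, from the pool on the same arrays, stayed between 2181 and 3670. The lowest Cy5 values are close to background, and the offset of 50 that was added before taking logs makes the 370-fold range of the ratio smaller than that of the Cy5 signal, so it depends on that setting.

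C152R161 and C215R104 had the next largest standard deviations among positive members. The log2 ratio of C152R161 was -5.52, 0.92 and 1.75 in the lowest, median and highest fish of day 0, and -4.99, -2.04 and 1.59 on day 5. That of C215R104 was -5.55, 0.81 and 1.74 on day 0 and -3.68, -1.29 and 1.19 on day 5. In both the lowest fish of day 0 was below every fish of day 5, and the median of day 5 was below that of day 0.

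The members that followed the score most closely moved over a smaller range. C001R087, with the highest correlation of all (0.979), had log2 ratios of -2.28, 0.86 and 1.39 on day 0, of -0.55, 0.31 and 0.95 on day 3 and of -2.31, -0.59 and 1.30 on day 5. On day 7 they were -3.14, 1.02 and 1.37. Its Cy3 signal, set against the median of each array, also varied more than that of most members, with a standard deviation of 0.50 on the log2 scale.

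C194R123 had a steadier pool signal, between 2765 and 5114 in Cy3, and a Cy5 signal between 158 and 17940. Its log2 ratio was -3.28, 1.09 and 1.41 in the lowest, median and highest fish of day 0, and -4.59, 1.00 and 1.74 on day 7. The day medians of 0 and 7 were close and each day held at least 1 fish more than 4 log2 units below its median.

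C258R119, C170R069 and C173R146 behaved in the same manner. On day 2 the log2 ratio of C258R119 was -3.94, 0.82 and 1.81, that of C170R069 was -2.07, 0.61 and 0.97 and that of C173R146 was -2.58, 0.53 and 0.93. In each of the 3 the lowest fish of day 2 was replicate 10 and lay apart from the other 9.

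Among negative members C260R112 had the widest range. Its log2 ratio was -1.76, -1.24 and 1.26 on day 0, -2.44, -1.51 and 2.09 on day 2, -1.61, -0.78 and 0.30 on day 3 and -2.15, 0.04 and 1.21 on day 5. Its Cy5 signal lay between 225 and 14040 and its Cy3 signal between 995 and 2210. The highest fish was day 2 replicate 10, the fish with the lowest score.

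C117R093 had the strongest negative correlation with the score, -0.959. Its log2 ratio was -1.51, -1.03 and 0.65 on day 0, -1.40, -1.11 and -0.36 on day 3, -1.12, -0.41 and 0.39 on day 5 and -1.62, -1.41 and 0.96 on day 7. On day 3 every fish lay below the pool, and on day 7 most fish lay below it while 2 of the highest fish lay above.

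C170R049 and C169R085 had nearly the same profile as C117R093. Across the 59 fish, C170R049 and C169R085 correlated at 0.987, C117R093 and C170R049 at 0.985, and C117R093 and C169R085 at 0.984. Of 19900 pairs of members, 12 correlated at 0.98 or more, and they involved 17 members. The closest pair was C085R107 and C180R110, both positive, at 0.993. Whether such pairs target the same transcript is not known here.

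The remaining negative members named by rule followed the same course at other levels. C059R168 had log2 ratios of -1.41, -1.19 and 0.99 on day 2 and -1.29, -0.49 and 0.50 on day 5. C198R153 had -1.11, -0.44 and 0.10 on day 3 and -1.76, -1.15 and 0.95 on day 7. In C198R153 the median of day 3 was nearer to that of day 5, -0.27, than in C117R093.

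C169R129 had log2 ratios of -1.44, -0.93 and 1.86 on day 2, and C191R124 had -0.86, 0.10 and 0.92 on day 5 against -1.93, -1.01 and 1.14 on day 7. The ranges of the days overlapped in both.

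The variation lay in the fish channel for every member. The standard deviation of log2 Cy5 over arrays had a median of 0.93 in the positive and 0.62 in the negative members, against 0.14 for log2 Cy3 in each set. Cy5 varied more than Cy3 in 173 of 173 and in 27 of 27 members. This is also the rule among eligible probes, of which 99.4% varied more in Cy5, with a median of 0.38 in Cy5 and 0.16 in Cy3. The log2 Cy3 standard deviation exceeded 0.3 in 8 positive members and 1 negative member.

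Positive and negative members also differed in level. Positive members had a median Cy5 signal of 4942 in the median member and a Cy3 signal of 3160, and Cy5 was the higher of the pair in 173 of 173. Negative members had 2758 in Cy5 and 4622 in Cy3, and Cy5 was the higher in 1 of 27. Among all eligible probes Cy5 was the higher in 82.3%. The order of the channels is part of the pattern that chose the members and no separate result.

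The deposited flags and the place on the slide were looked at as well. Code 3, whose meaning the sources used here do not state and which went with a median Cy5 signal of 40650, occurred on at least 1 array in 77 of 173 positive and in 10 of 27 negative members, against 24.4% of eligible probes. In the 96 positive members without it the median standard deviation was 0.92, the same as in the whole set. Columns 1 to 133 of the array held 80 of 173 positive and 12 of 27 negative members, against 49.5% of eligible probes. Rows 1 to 85 held 86 and 9, against 8237 of the 16476 eligible probes.

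Members correlated with each other across fish much as they did with the score. Over the 59 fish the median correlation of pairs was 0.908 within the positive members (0.779 to 0.993), 0.908 within the negative members and -0.888 between the signs. This follows from the choice of members. With each probe centred within its day the values were 0.913, 0.911 and -0.893, and centred within its slide 0.901, 0.901 and -0.879. They were lowest within day 3, at 0.684, 0.712 and -0.641 (10 fish), where no fish had a far low score.

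The same kind of list was therefore chosen again in 1 tank and read in fish that had not chosen it. The 200 probes chosen in tank 1 had a median pairwise correlation of 0.846 over the 30 fish of tank 2, counted in the direction that tank 1 gave, and 19900 of 19900 pairs had that direction. The 200 chosen in tank 2 had 0.874 over the 29 fish of tank 1, again with 19900 of 19900 pairs in that direction. Since the 200 probes of a list move together, the 19900 pairs are not separate observations. Over all fish 46.6% of eligible probes had an absolute correlation of 0.5 or more with the score. A common direction in a list of the closest 200 is thus no separate support. Pairs among 2060 eligible probes taken at even steps had median absolute correlations of 0.226 and 0.26 in the same fish. Those probes were not chosen to follow a component, so they are no like comparison. The tank 1 list shared 145 probes with the members and the tank 2 list 97, and the fish of a list share slides with those of the other tank.

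Day separated the members about as little as it separated other probes. The share of the variation between fish that lay between days was 5.4% for the score, 5.96% for the median positive member and 8.03% for the median negative member, against 7.54% for the median eligible probe. Tank took 2.61%, 3.38% and 1.16%, against 0.93%. Slide, of which there were 15 with 4 arrays each, took 30.9%, 30.6% and 29.9%, against 27.5%, and position on the slide 3.23%, 4.03% and 4.23%, against 3.83%. A label with more groups takes a larger share by its number of groups alone. Each share can therefore be read only against that of the eligible probes, not against another label.

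The score also went with the balance of the dyes over the whole array. Across the 59 arrays its correlation with the array's dye balance (log2 of median Cy5 over median Cy3 signal) was Pearson's r = -0.575 (permutation p = 1e-05, the smallest that the resamples can give, adjusted over 3 relations 3e-05) and Spearman's rho = -0.499 (permutation p = 0.0001). Without the 2 arrays farthest from the median ratio r was -0.513, and within slides it was -0.543. For the log2 median Cy5 signal r was -0.399 and rho -0.328 (permutation p = 0.002 and 0.01, the former adjusted 0.002), with r = -0.383 without the 2 farthest and -0.479 within slides. For the log2 median Cy3 signal r was 0.421 and rho 0.299 (permutation p = 0.0009 and 0.02, the former adjusted 0.001), with r = 0.324 and 0.415. The permutations shuffled all 59 arrays freely, although arrays of the same slide may not be independent. Their p-values can therefore be too small, and none was computed within slides. The score and these medians come from the signals of the same arrays, so the correlations are no independent test. The median covers all probes of the array, most of them dim, and the part of dye balance in the members' pattern was not tested.

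The comparison of days asks whether the level of these transcripts changed with time on soybean meal. In limma fits over all 43627 probes, with Benjamini-Hochberg adjustment, no member reached an adjusted p under 0.05 in any of 12 comparisons: each later day against day 0, day 2 against 1, 3 against 2, 5 against 3 and 7 against 5, any difference among days, tank 1 against tank 2, and day by tank. The share of all probes that did so was 0% in each of these. The members' own differences follow, with counts at an unadjusted p under 0.05, which are no calls. The shares of all probes set beside these counts include dim probes, whereas members were chosen only among the eligible probes. Counts with 1 fish left out are given for members alone. They cannot tell a change in the members from a change in all probes.

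From day 3 to day 5 the members' differences all had 1 direction for each sign, and none passed the test. All 173 positive members were lower and all 27 negative members higher on day 5, with median differences of -0.57 (median standard error 0.40) and 0.36 (0.25) on the log2 scale. At an unadjusted p under 0.05 there were 17 of 200 members, 14 positive and 3 negative, against 7.25% of all probes. The lowest adjusted p among members was 0.624. In a fit of the eligible probes alone the counts were 15 of 200 members and 1568 of 16476 probes, so there the members held no larger share. Over all 43627 probes their share was larger with median centring, 36 of 200 members against 2338 probes. With the replicate block it was larger too, 36 members against 3394 probes. With slide as a block it was smaller, 8 members against 2818 probes. Leaving out 1 fish moved the 17 to between 2, without day 5 replicate 9, and 51, without day 5 replicate 2, with no adjusted call. With slide as a block 1 of 173 positive members was higher on day 5. Since the members move together, a common direction is 1 observation and not 200.

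From day 5 to day 7 the differences had the opposite direction, again with none past the test. All 173 positive members were higher and all 27 negative members lower on day 7, by medians of 0.55 (median standard error 0.40) and -0.51 (0.25). At an unadjusted p under 0.05 there were 25 of 200 members, 18 positive and 7 negative, against 8.04% of all probes, and the lowest adjusted p was 0.481. In a fit of the eligible probes alone the counts were 21 of 200 members and 1972 of 16476 probes, so there again the members held no larger share. Over all 43627 probes their share was larger with median centring, 36 of 200 members against 2436 probes. With the replicate block it was larger too, 41 members against 3788 probes. With slide as a block the counts were 15 members and 2980 probes. The comparison shares the day 5 fish with the one before. Leaving out 1 fish moved the 25 to between 11, without day 7 replicate 4, and 122, without day 7 replicate 7. It was 116 without day 7 replicate 2 and 12 without day 5 replicate 8, 9 or 10 or day 7 replicate 5, with no adjusted call in any of these.

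In C117R093 the day 5 minus day 3 difference was 0.64 (standard error 0.30, limma adjusted p = 0.67) and the day 7 minus day 5 difference -0.55 (0.30, adjusted p = 0.657). In C191R124 the latter was -0.75 (0.31, adjusted p = 0.554). In C104R106 they were -1.84 and 1.67, each with a standard error of 1.07 (adjusted p = 0.723 and 0.719). The most variable member had the largest difference from day 3 to day 5 and also the largest error.

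Against day 0, day 5 was lower in all 173 positive members (median -0.42, median standard error 0.41) and higher in all 27 negative members (0.31, 0.26). At an unadjusted p under 0.05 there were 2 of 200 members, against 4.03% of all probes, and the lowest adjusted p was 0.989. Leaving out 1 fish moved the 2 to between 0, for example without day 0 replicate 3, and 27, without day 0 replicate 7. With slide as a block in the fit the medians were -0.19 and 0.13, 20 of 173 positive members were higher on day 5, 26 of 27 negative members were higher, and the count was 0, so the single direction did not hold. For days 1, 2, 3 and 7 against day 0 the median differences in positive members were 0.15, 0.12, 0.14 and 0.12, each below its median standard error of 0.41. With slide as a block they were 0.31, 0.56, 0.32 and 0.36, with median standard errors of 0.51, 0.48, 0.45 and 0.48, so that only day 2 exceeded its error. Without the block the count at an unadjusted p under 0.05 was 0 of 200 on each (with it, 2 on day 2), against 2.82%, 3%, 4.78% and 2.89% of all probes. With the block 1766 of all 43627 probes reached it on day 2. In a fit of the eligible probes alone it was again 0 of 200 on each, against 154, 211, 765 and 192 of 16476 probes.

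The fits leave room for changes of some size. The 95% confidence interval of a positive member's difference from day 0 had a median half-width of 0.82 on the log2 scale. For day 7 against day 0 it lay wholly within a 2-fold change either way in 91 of 173 positive and 25 of 27 negative members. For day 5 against day 0 it did so in 45 of 173 and 22 of 27. In the other members a 2-fold difference lay within the interval, so the missed threshold does not show that the days were alike.

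Day 2 against day 1 and day 3 against day 2 gave median differences in positive members of -0.04 and 0.03, with 0 of 200 members at an unadjusted p under 0.05 in each, against 4.32% and 3.77% of all probes. With slide as a block both medians had the opposite sign, 0.27 (158 of 173 higher) and -0.24 (3 of 173 higher). Leaving out 1 fish moved them from -0.278 to 0.234 and from -0.235 to 0.105 (a sign change without any of 5 and of 3 fish), so neither has a settled direction. The test for any difference among days gave 0 of 200, against 4.88%.

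Between the tanks, all 173 positive members were lower in tank 1, by a median of 0.33 (the tank 1 minus tank 2 difference was -0.33, median standard error 0.23), and all 27 negative members were higher (0.12, 0.15). At an unadjusted p under 0.05 there were 2 of 200, against 4.44% of all probes, and the lowest adjusted p was 0.955. Leaving out 1 fish moved the 2 to between 0, for example without day 0 replicate 3, and 82, without day 7 replicate 2, a low fish of tank 2. With slide as a block the medians were -0.15 and 0.03, 6 of 173 positive members were higher in tank 1, 20 of 27 negative members were higher, and the count was 0. The day by tank term gave 0 of 200, against 3.82%.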

How the data were processed

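Distal intestine of 60 salmon was measured on 2-colour arrays of 45220 spots; 59 arrays titled tank 1 or 2 were grouped by day, and 1 array titled tank 0 entered no comparison. The deposited scanner files hold, per the file headers, a background-corrected median intensity and a flag for each dye and spot. The authors' deposited value table holds log2 ratios for 43689 probes; the sources used here do not state how it was normalised, and it served the choice of members and as an alternative. Its array medians lay between -0.02 and 0.03, and each array's values correlated positively with the ratios computed here (0.718 to 0.957 over eligible probes), so its direction is fish over pool. Its slope on them ran from 0.567 to 1.29, and the normalisation behind that is unknown. The slope went with the score: it was 1.07 or more in the 10 fish with scores under -40 and 0.989 or less in all others. With the loess ratios computed here in place of the value table, the first component held 40.7% of the variation, against 39.8%. That choice shared 186 of the 200 members. What the slope adds to the axis was not tested beyond this. Other values were computed here: intensities were floored at 0, 50 was added, and log2(Cy5/Cy3) was normalised by loess within each array (limma 3.58.1, R 4.3.3). The 62 probes with flag code 1 on any array were left out. Days and tanks were tested with lmFit and eBayes over 43627 probes (all 59 arrays, day groups in the model; the tank fit has day as a covariate, and day by tank their interaction). No depth applies to arrays. In data simulated for day 7 against day 0 with 200 changed probes, 93.6% of changes of 1 log2 and 36.4% of 0.5 log2 were recovered, with 9.6 false calls a draw. The changed probes were drawn at random from all 43627, whose median standard error was 0.14 in this comparison. It was 0.41 in positive and 0.26 in negative members, so these rates do not hold for the members. Deviations of same-numbered fish of different days had a mean correlation of 0.049 (from -0.727 to 0.811), against 0.00373 (-0.68 to 0.839) for other numbers. Numbers were therefore not taken to pair fish, although a mean over all numbers cannot exclude it. Replicate 7 had scores of -87.9, -93.0 and -91.5 on days 0, 1 and 7. On days 2, 3 and 5 its scores were 40.5, -7.36 and -23.0. The principal component used numpy 2.4.6.

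The members, lists and tests were chosen with earlier results of these data known. Named probes are, for each sign, the 5 members with the largest absolute correlation with the score and the 3 others with the largest standard deviation; members with the highest pairwise correlation were named after their values were seen. Gene lists could not be applied because probes were not paired with genes. Alternatives were the authors' value table, normexp background correction of the corrected signals before any floor, median centring, another floor, brighter probes, tank as a covariate, slide and replicate number as blocks, other choices of members and leaving out each array. Nothing says that p-values cover more than the spread between these fish.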

Additional observations from a re-analysis of the deposited data

Results flagged for a closer look

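A search of 114 sets of fish (the score, the medians of both signs and the 16 named members, each within a day) for a fish that lay far from the others of its day found 27 such sets. Chance alone flags about 1 in 20 independent sets, but these share fish and were chosen to follow 1 axis, so no excess can be read from the count. All 27 came from the same pair of fish, day 1 replicate 7 and day 2 replicate 10, both of tank 1.

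Day 1 replicate 7 was the lowest fish of its day by a wide gap, with a score of -93.0 against -23.6 for the next fish and a median log2 ratio of -1.89 over the positive members against -0.28. Among its positive members C258R119 stood at -4.32, C170R069 at -2.05, C194R123 at -3.74 and C173R146 at -2.07. C104R106 stood at -5.78, C152R161 at -4.99 and C215R104 at -5.34. The negative member C169R129 was the highest of the day, at 1.21.

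Day 2 replicate 10 was the lowest fish of the series, with a score of -111 against -22.4 for the next fish of day 2 and a median of -2.24 over the positive members against -0.03. Its positive members C001R087, C258R119, C170R069, C194R123 and C173R146 stood at -3.13, -3.94, -2.07, -3.97 and -2.58. C104R106 stood at -6.36, C152R161 at -5.43 and C215R104 at -5.83. Its negative members were the highest of the day, with a median of 0.90 and with C117R093 at 0.90, C170R049 at 0.80, C169R085 at 0.70, C059R168 at 0.99, C260R112 at 2.09 and C169R129 at 1.86.

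Fish of days 0, 5 and 7 with scores nearly as low were not found by this search, because on those days at least 2 fish were low together.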

How the results depend on the processing

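No member reached an adjusted p under 0.05 in any of the 12 comparisons under any alternative in which it was run, or with any 1 of the 59 arrays left out. Tank 1 against tank 2 and day by tank were not run with tank as a covariate or with the replicate block. The counts at an unadjusted p under 0.05 did move. From day 3 to day 5 the 17 members became 36 with median centring, 36 with the replicate block and 8 with slide as a block. Over all 43627 probes the 3165 of the main fit became 2338, 3394 and 2818 in the same order. From day 5 to day 7 the 25 became 41 with the replicate block and 15 with slide as a block. The 3508 of all probes became 3788 and 2980. Between tanks the 2 became 20 with median centring and 0 with the authors' value table, normexp background correction, a floor of 1 without offset, brighter probes or slide as a block. The 1939 of all probes became 1492 with median centring, 1881, 1921 and 1858 in the next 3 and 1390 with slide as a block. Brighter probes gave 586 of 16476. From day 0 to day 5 the 2 became 0 with the authors' value table, median centring, a floor of 1 without offset or slide as a block, and 1 with the replicate block. The 1756 of all probes became 1861, 1745, 1864, 1720 and 1691 in the same order. For any difference among days the 0 became 3 with median centring and 4 with the replicate block. The 2129 of all probes became 2280 and 2341. With 1 array left out the counts ran from 2 to 51 from day 3 to day 5 and from 11 to 122 from day 5 to day 7. They ran from 0 to 82 between tanks, from 0 to 27 from day 0 to day 5 and from 0 to 8 for any difference among days. Counts over all probes with 1 array left out are not given here. Replicate numbers were not taken to pair the fish, so the replicate block was a check only. With slide as a block the median difference of day 2 from day 0 was 0.56 in positive and -0.45 in negative members, against 0.12 and -0.16 without it, and the tank difference of C170R049 changed sign, from 0.12 to -0.00495; the cause was not tested. Leaving out 1 array changed the sign of the positive members' median against day 0 on day 1 (-0.09 to 0.40), day 2 (-0.13 to 0.38), day 3 (-0.10 to 0.24) and day 7 (-0.11 to 0.38).

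Of the members, 186 were chosen again from loess ratios, 176 with values centred within days and 171 within slides. Spearman's correlation in place of Pearson's shared 62 and gave 117 positive probes, although the members' median absolute rho was 0.858. Tank 2 alone shared 97, with 110 positive probes and 34.3% of variation on the component, and tank 1 alone held 46.4%. Probes scaled to unit variance gave 29.0%. Leaving out 1 array gave 177 to 198 shared, 166 to 177 positive and 37.4% to 40.6%. In an alternative chosen after seeing the data, leaving out day 1 replicate 7 and day 2 replicate 10 shared 168 and gave 35.6%. Dim Cy5 signals limit the lowest ratios of the most variable members.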

Other observations

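The array titled day 1, tank 0 belongs to no tank of the design and was left out of the comparisons. On it the positive members lay a median of 0.33 on the log2 scale above their medians over the 59 arrays, with 151 of 173 above. The negative members lay a median of 0.05 above, with 18 of 27 above. All eligible probes lay a median of 0.01 above theirs. It is 1 array, with no replicate of its kind.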
